A study of Macaca mulatta with 304 samples.

Results

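Whole blood drawn on Day 120 after irradiation of the thorax was compared with blood of the same animals drawn before irradiation. The members were the samples of every rhesus macaque (Macaca mulatta) that had both a Day 120 sample and its own control sample, matched by the animal id in the sample names. They were 24 samples of 12 animals, out of 14 Day 120 samples, 24 control samples and 304 samples in all. The other 2 Day 120 samples had no control of their own. The RNA was sequenced without its ribosomal part, in adult animals of the Chinese sub-strain. The control group held blood drawn 2 days before irradiation, with no dose, from 6 males and 6 females. The Day 120 group held blood of the same 12 animals 120 days after a dose to the thorax of 9.8 Gy in 6 males and 5 females and 10.7 Gy in 1 female. A dose comparison was therefore not made. The last blood draw was on Day 270 in 6 of the animals and on Day 120 to 172 in the other 6. By the methods, animals with fast breathing were given dexamethasone, a synthetic glucocorticoid, and the sample labels do not say which animals received it.

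Whole blood RNA comes mainly from lymphocytes, neutrophils, monocytes, platelets and young red cells. B cells and T cells are among the most radiosensitive cells of the body, and irradiation of the thorax also exposes the blood passing through heart and lungs and the marrow of ribs, sternum and spine. Lung injury by radiation develops over months, first as pneumonitis and later as fibrosis. In blood, neutrophils carry granule proteins and receptors for chemoattractants, and the interleukin-1 (IL-1) receptor family passes or blocks alarm signals of damaged tissue. Glucocorticoid hormones raise a small, well known set of genes in blood cells and move lymphocytes out of the circulation and neutrophils into it.

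Counts per library ranged from 10851700 to 13575200 in the 12 control samples and from 4869120 to 9991330 in the 12 Day 120 samples. Markers fixed for lymphocytes, neutrophils, monocytes and red cells were counted in every library, with at least 181 counts of CD79A, 560 of CD3E, 1069 of CXCR2 and 1152 of CD14. Of the markers of lung epithelium, SFTPC had 1 count over the control libraries and 1 over the Day 120 libraries, SCGB1A1 had 78 and 32, and SFTPB, counted in every library, had 665 and 262. Numbers at the end of the library names fell into 3 classes, called series A (lower numbers), B (higher numbers) and C (all 0) here, and their meaning is not stated. All 12 controls were of series A, while 4 of the Day 120 samples were of series B and 8 of series C, so that the series and Day 120 cannot be told apart within an animal. For this reason 3 further comparisons were set beside the main one. Day 90 samples of the same 12 animals were of the same series as their Day 120 samples in all 12 animals. Within series C, 10 Day 120 samples were compared with 4 controls, all of other animals. These Day 120 samples included those without a control of their own, which came from females given the higher dose. The 4 controls were all of animals that later received the higher dose. This comparison therefore differed from the main one in its animals and in its mix of doses. The 4 controls of series C were also compared with the 20 controls of series A, which gave 810 of 13751 genes past the threshold, or 5.89% of the genes tested, without irradiation.

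Expression on Day 120 differed from the animal's own control in 4368 of 13751 genes tested by edgeR's quasi-likelihood test. The threshold was a p of 0.05 after Benjamini-Hochberg adjustment together with a 1.5-fold change. Of these, 1745 were higher on Day 120, or 12.7% of the genes tested, and 2623 were lower, or 19.1%. The split rested on the scaling of the libraries, with 2094 higher and 1954 lower under TMM scaling, 2377 and 1903 under DESeq2, and 2174 and 2065 with no filter on low counts. The median log2 fold change of all genes was -0.15 with upper quartile scaling, which all values below use, -0.05 with TMM scaling and -0.01 with DESeq2. Values are therefore to be read relative to -0.15. Of the 4368 genes, 1442 moved the same way in all 12 animals. Levels are given as CPM, the counts set against the library size after upper quartile scaling. The CPM of the control and Day 120 groups did not overlap for 1.64% of the genes tested. Within series C, 1446 genes were higher on Day 120 (10.5%) and 1668 lower (12.1%).

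Genes of B cells fell in every animal. Of 24 genes in the B cell list, 22 were lower on Day 120, none was higher, and the median log2 fold change was -1.49, beside -0.15 for all genes. The share of lower genes among all genes tested was 19.1%. Whether fewer B cells or less RNA per B cell lay behind such a value cannot be told apart in whole blood, and this holds for every cell type below. CD79B, a signalling chain of the B cell receptor, ranged from 52.6 to 365 CPM (median 224) in controls and from 24.8 to 69.03 CPM (median 37.7) on Day 120. It was lower in 12 of 12 animals, and the groups overlapped only between the lowest control and the highest Day 120 samples, with a log2 fold change of -2.34 ± 0.22 (SE), adjusted p = 6.23e-06 (edgeR). PAX5, the transcription factor that maintains B cell identity, ranged from 35.5 to 385 CPM (median 219.5) in controls and from 13.9 to 123.8 CPM (median 48.4) on Day 120. CD22, an inhibitory coreceptor of B cells, ranged from 14.99 to 177.1 CPM (median 77.8) before irradiation and from 7.44 to 43.2 CPM (median 18.8) afterwards. Both were lower in all 12 animals, with log2 fold changes of -2.01 ± 0.17 (SE), adjusted p = 1.95e-06, and of -2.01 ± 0.17 (SE), adjusted p = 2e-06. The other called members fell less, the least being POU2AF1, a B cell coactivator, at -0.88, and included CD72, CD79A, CR2, BLK and the marker MS4A1, which encodes CD20. The members that did not pass were VPREB3 (-0.94) and the kinase BTK (0.14), which myeloid cells also express. Within series C 22 of the 24 genes were lower on Day 120 and none was higher. Between controls of series C and A the median over the list was 0.21.

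**Figure D1:**
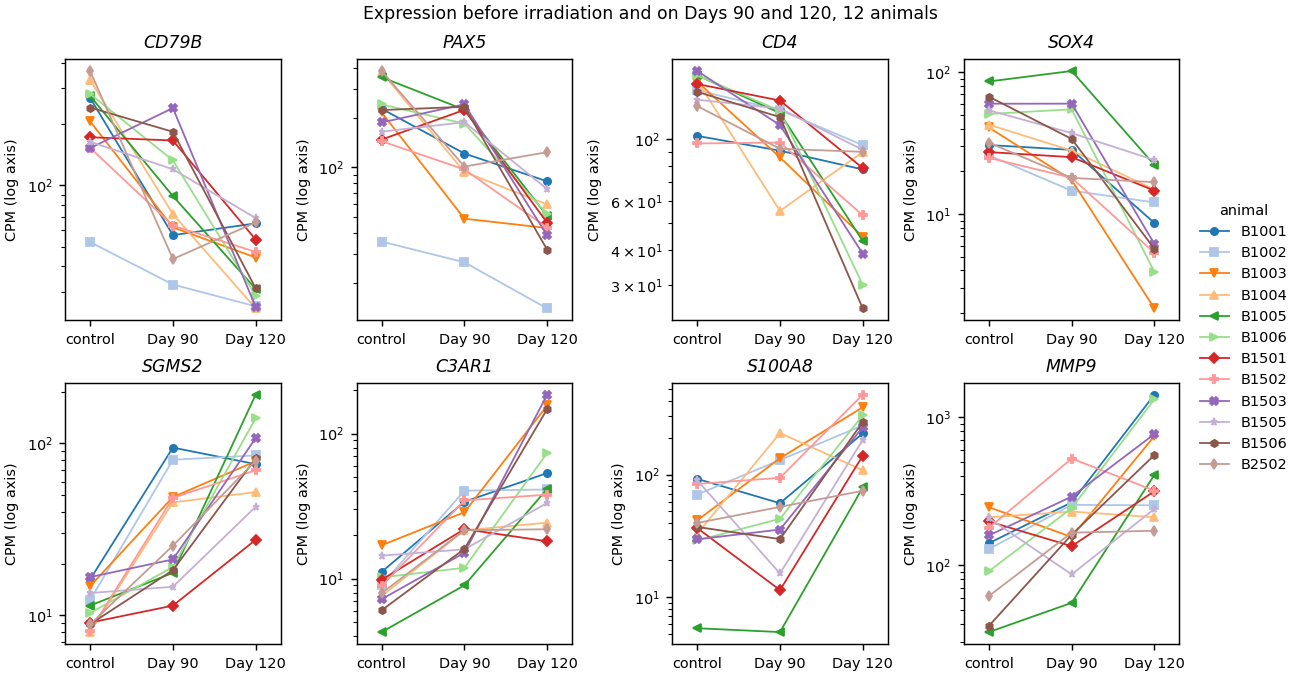
Levels of 8 named genes in each of the 12 animals before irradiation (control), on Day 90 and on Day 120, with CPM on a log axis and 1 line per animal. CD79B, PAX5, CD4 and SOX4 end lower on Day 120 than in the control of the same animal and SGMS2, C3AR1, S100A8 and MMP9 end higher, in all 12 animals.

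T cell genes were lower in part. In the T cell receptor list 11 of 17 genes were lower and none was higher, with a median of -0.75. CD4, the coreceptor of helper T cells, ranged from 96.3 to 175 CPM (median 153) in controls and from 24.8 to 94.96 CPM (median 65.5) on Day 120. All Day 120 samples lay below all controls, with a log2 fold change of -1.31 ± 0.21 (SE), adjusted p = 0.000223 (edgeR). CD5 and CD6, surface receptors that tune T cell signalling, fell by 1.36 and 1.02 on the log2 scale, each lower in 11 of 12 animals. The CD8 chains did not pass the threshold, at -0.27 for CD8A and -0.56 for CD8B. Of 15 genes of naive lymphocytes 9 were lower and 1 was higher. The homing receptor CCR7 (67.8 to 304 CPM (median 162.9) in controls, 18.8 to 184 CPM (median 50.9) on Day 120) and the transcription factor TCF7 (316 to 738 CPM (median 518) against 70.1 to 658 CPM (median 198.7)) were lower in 12 of 12 animals, although the groups overlapped. Their log2 fold changes were -1.41 ± 0.33 (SE), adjusted p = 0.00259, and -1.29 ± 0.32 (SE), adjusted p = 0.00384. ID3, an inhibitor of E proteins, had -1.45. Among 22 genes of cytotoxic lymphocytes, 4 were lower and 1 was higher, and the median was -0.26, a share of lower genes near the 19.1% of all genes tested. GZMB and PRF1, the killing proteins granzyme B and perforin, had log2 fold changes of -0.95 ± 0.19 (SE), adjusted p = 0.00104, and of -0.88 ± 0.17 (SE), adjusted p = 0.000739 (edgeR), while the natural killer receptor gene NCR3 was the higher one at 0.86. Within series C the value of GZMB was -1.08 (adjusted p = 0.0509), where the adjusted p missed the threshold.

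Genes of class II antigen presentation, which B cells, monocytes and dendritic cells express, were mostly lower against the own control. Of 16 genes 11 were lower and 2 were higher, with a median of -0.91, while within series C 5 were lower and 1 was higher, with a median of -0.72. The lowest member was FCER1A (-2.15), an IgE receptor chain that is also counted among the basophil genes below. MAMU-DOA and MAMU-DOB, the chains of a class II chaperone found mainly in B cells, ranged from 25.5 to 119.1 CPM (median 66.5) and from 39.7 to 131.6 CPM (median 82.3) in controls. On Day 120 they ranged from 9.41 to 48.03 CPM (median 23.62) and from 11.4 to 63.1 CPM (median 25.4). Both were lower in 12 of 12 animals, at -1.62 ± 0.16 (SE), adjusted p = 6.23e-06, and -1.62 ± 0.20 (SE), adjusted p = 3.44e-05 (edgeR). Of 12 plasma cell genes 3 were lower and none was higher, a share of lower genes near the 19.1% of all genes tested. CD38, an ectoenzyme of plasma cells and activated lymphocytes, ranged from 199.9 to 435 CPM (median 302) in controls and from 90.1 to 193.9 CPM (median 139) on Day 120, with no overlap between the groups and a log2 fold change of -1.14 ± 0.13 (SE), adjusted p = 2.59e-05. IRF4, a lymphocyte transcription factor, had -0.97 and MZB1, a chaperone of antibody secretion, -0.78. JCHAIN, which joins secreted antibody, was not called (0.18).

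Neutrophil genes rose. In the mature neutrophil list 16 of 19 genes were higher and none was lower (median 1.39), and in the granule list 12 of 16 were higher and none was lower (median 1.52). The share of higher genes among all genes tested was 12.7%. MMP8, the neutrophil collagenase, ranged from 0.258 to 4.28 CPM (median 1.35) in controls and from 2.98 to 70.9 CPM (median 6.76) on Day 120. It was higher in 12 of 12 animals, with only the highest control and the lowest Day 120 samples overlapping, at a log2 fold change of 3.08 ± 0.25 (SE), adjusted p = 1.95e-06 (edgeR). CD177, a neutrophil surface protein, ranged from 12.2 to 139.6 CPM (median 53.2) before irradiation and from 101.3 to 765 CPM (median 237.6) afterwards, and LCN2, the iron-binding lipocalin of specific granules, from 0.802 to 4.79 CPM (median 2.22) and from 3.29 to 57.03 CPM (median 7.86). Both were higher in all 12 animals, at 2.64 ± 0.48 (SE), adjusted p = 0.000495, and 2.47 ± 0.35 (SE), adjusted p = 9.35e-05. The alarmins S100A8 and S100A12 were also higher in 12 of 12 animals, at 2.27 ± 0.25 (SE), adjusted p = 1.57e-05, and 2.63 ± 0.36 (SE), adjusted p = 7.11e-05 (edgeR). Their levels were 5.57 to 92.2 CPM (median 38.8) and 0.451 to 3.28 CPM (median 1.31) in controls and 73.7 to 449.7 CPM (median 230.2) and 1.82 to 19.3 CPM (median 8.93) on Day 120. In controls, the log2 difference of series C minus series A was -2.04 (adjusted p = 0.035) for S100A8 and -2.24 (adjusted p = 0.0812), not past the threshold, for S100A12, opposite in sign to the Day 120 difference. FPR2, a chemoattractant receptor, was higher in 11 animals at 2.31. ALPL (-0.46), FCGR3 (-0.14) and the granule protein LTF (0.48) did not pass the threshold.

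The IL-1 receptor family was raised, with the highest levels in 5 of the animals. In the list of IL-1, IL-18 and inflammasome genes 15 of 19 genes were higher and none was lower, with a median of 1.27. The share of higher genes among all genes tested was 12.7%. IL1RL1, the receptor of IL-33, ranged from 2.52 to 21.8 CPM (median 5.39) in controls and from 4.82 to 937 CPM (median 41.1) on Day 120, at 3.35 ± 0.99 (SE), adjusted p = 0.0116 (edgeR). IL18RAP and IL18R1, the chains of the IL-18 receptor, were higher in 12 of 12 animals. IL18RAP ranged from 1.43 to 7.56 CPM (median 3.88) in controls and from 10.96 to 169.6 CPM (median 27.4) on Day 120, without overlap, at 3.08 ± 0.51 (SE), adjusted p = 0.000259. IL18R1 ranged from 5.67 to 25.1 CPM (median 12.8) and from 13.8 to 975 CPM (median 40.4), at 2.87 ± 0.71 (SE), adjusted p = 0.00386. IL1R2, the decoy receptor that binds IL-1 without signalling, ranged from 6.59 to 132.3 CPM (median 28.04) and from 37.9 to 2077 CPM (median 103.9), at 2.87 ± 0.83 (SE), adjusted p = 0.00993. The Day 120 values of IL1R2 fell into separate ranges, 1023 to 2077 CPM in animals B1003, B1005, B1006, B1503 and B1506 and 37.9 to 110.7 CPM in the other 7. The values of IL1RL1 were also highest in these animals, at 422 to 937 CPM, with the next at 45.3 CPM, and those of IL18R1 at 607 to 975 CPM, with the next at 42.5 CPM. These animals were 3 males and 2 females, 3 with Day 120 libraries of series C and 2 of series B. Of them, 2 were followed to Day 270, while in B1005 and B1006, alone among the 12 animals, Day 120 was the last draw. Because they were told apart by the measured values, no test was made between them and the others.

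**Figure D2:**
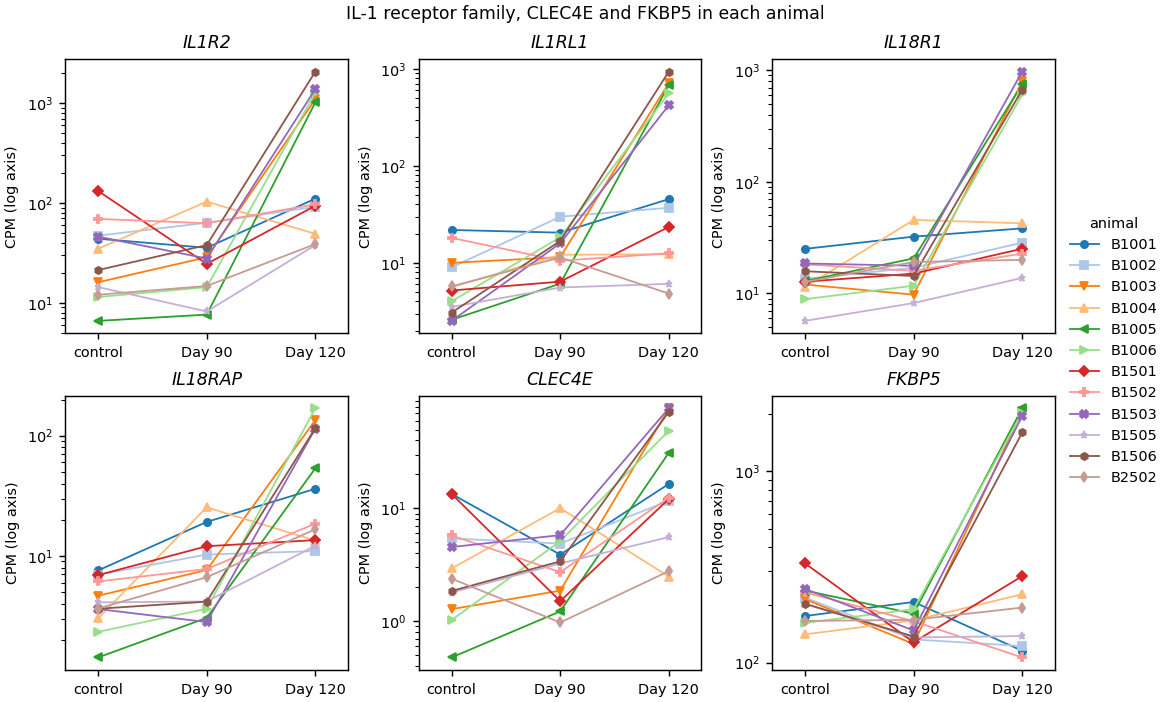
Levels of IL1R2, IL1RL1, IL18R1, IL18RAP, CLEC4E and FKBP5 in each of the 12 animals before irradiation, on Day 90 and on Day 120, with CPM on a log axis and 1 line per animal. In animals B1003, B1005, B1006, B1503 and B1506 the lines of IL1R2, IL1RL1, IL18R1 and FKBP5 climb between Day 90 and Day 120 to values above those of the other 7 animals.

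These receptor genes are neighbours in the genome. In Mmul_10 the stretch chr13:5801167-6226056, from IL1R2 to IL18RAP, held 5 tested genes (IL1R2, IL1R1, IL1RL1, IL18R1 and IL18RAP), and all 5 were higher on Day 120. IL1R1, the signalling receptor of IL-1, had 1.81 and was higher in 10 animals. Another stretch, chr11:11263940-11462824, held the lectin genes CLEC4E, CLEC4D and CLEC4A, the trafficking gene NECAP1 and the complement receptor gene C3AR1, and again all 5 tested genes were higher. Both stretches were chosen after their values had been seen, and their ends were set at named genes that were higher. All of their genes but IL1R1 and NECAP1 had been named for being higher, so these counts are no test. Among all genes tested 12.7% were higher.

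Some glucocorticoid response genes were highest in the same animals. Of 21 genes in that list 10 were higher and 1 was lower, with a median of 1.09, beside 12.7% higher and 19.1% lower among all genes tested. FKBP5, a chaperone that glucocorticoids raise, had a log2 fold change of 1.09 ± 0.51 (SE), adjusted p = 0.0909 and did not pass the threshold, yet it stood at 1596 to 2139.7 CPM on Day 120 in B1003, B1005, B1006, B1503 and B1506 and at 106.4 to 283 CPM in the other 7, with 140.5 to 331 CPM over the 12 controls. ZBTB16, a zinc finger factor induced by the same hormones, stood at 471 to 744 CPM in these 5 animals, 12.2 to 58.04 CPM in the others and 8.27 to 66.002 CPM in controls. PER1, a clock gene with glucocorticoid receptor sites, stood at 259.5 to 618 CPM, 31.1 to 100.9 CPM and 30.7 to 106.5 CPM in the same order. FKBP5, ZBTB16 and PER1 were picked from the list after their values had been seen. Of the 20 members other than IL1R2, 10 had their 5 highest Day 120 levels in these animals and 10 did not, among them MAOA, SGK1, KLF9, SESN1 and PIK3IP1. By the fixed rule, THBD, the thrombin receptor thrombomodulin, ranged from 6.86 to 59.6 CPM (median 21.2) in controls and from 28.9 to 237.9 CPM (median 70.5) on Day 120, higher in 12 of 12 animals at 2.06 ± 0.36 (SE), adjusted p = 0.00036 (edgeR). DUSP1, a phosphatase that shuts off stress kinases, ranged from 117.6 to 518 CPM (median 222) and from 192 to 2648 CPM (median 878), at 1.57 ± 0.44 (SE), adjusted p = 0.00867. The part of dexamethasone in these values was not tested.

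Median differences over lists are given for single animals, as a description. For the glucocorticoid list the median log2 difference from the own control ranged over the 12 animals from -0.29 to 2.82, and the values of B1003, B1005, B1006, B1503 and B1506 were the 5 highest. For mature neutrophil genes it ranged from 0.02 to 3.29, and for IL-1 and IL-18 genes from 0.03 to 2.39, with the same animals highest. These animals were told apart by IL1R2 and FKBP5, members of the glucocorticoid list, and IL1RL1 and IL18R1, members of the IL-1 and IL-18 list. The order of the animals in these lists follows in part from that choice. T cell receptor genes ranged from -2.05 to -0.03, with the same animals lowest. B cell genes were lower in 12 of 12 animals, from -2.097 to -0.68. There B1004, which was not among these animals, had the lowest value, close to -2.095 in B1506. B1003, B1005, B1006, B1503 and B1506 held the next lowest values. Of them B1503, at -1.497, lay close to the following animal, B1001, at -1.462. Granule genes were higher in 12 of 12 animals, from 0.48 to 2.33. The standard deviation over genes of an animal's log2 differences ran from 0.49 in B1505 to 1.37 in B1506.

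**Figure D3:**
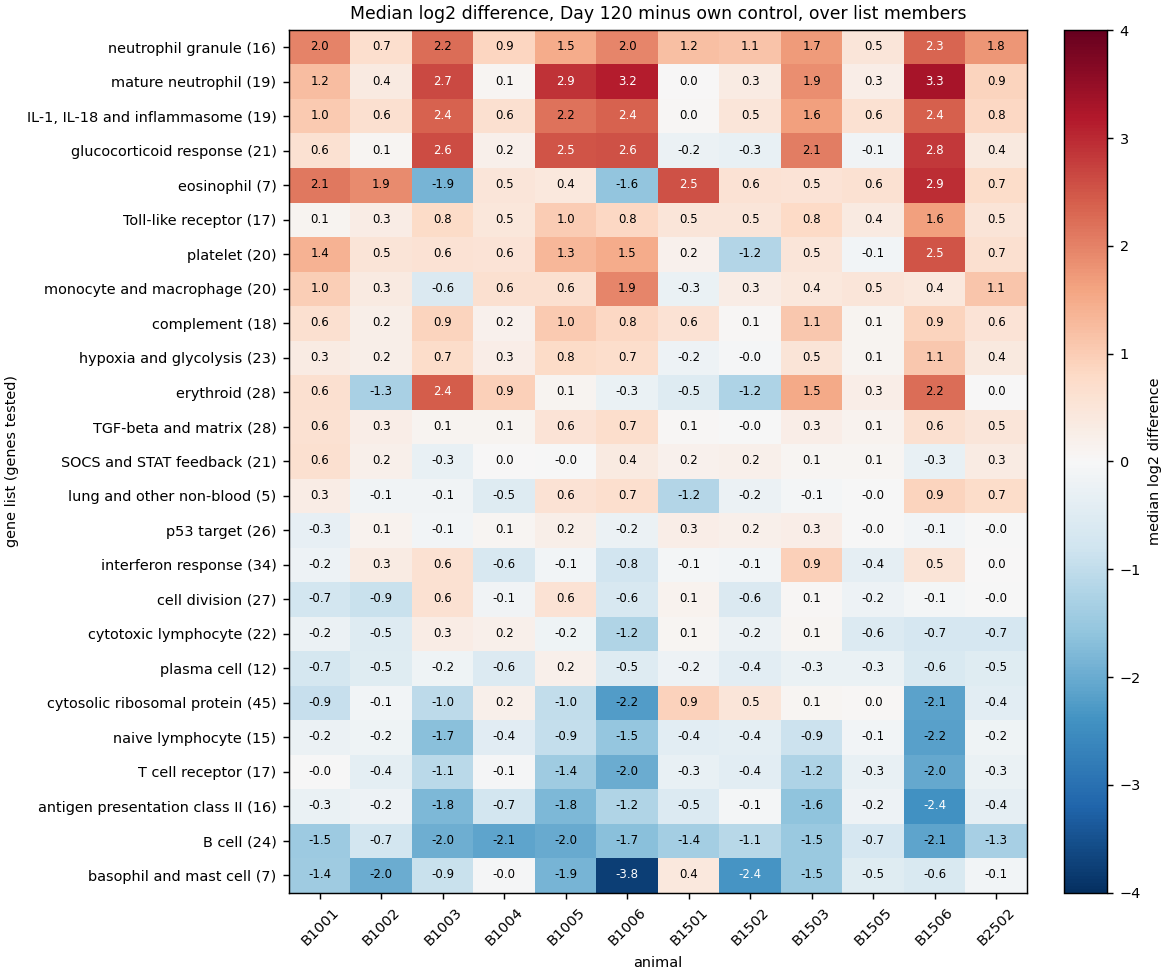
Median log2 difference between Day 120 and the own control over the members of each gene list (rows, with the number of genes tested) in each of the 12 animals (columns), with red for higher and blue for lower on Day 120. The B cell row is below 0 and the neutrophil granule row above 0 in all 12 animals, while the glucocorticoid row is above 2 in 5 animals only.

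Monocyte, complement and pattern recognition genes rose in part. In the monocyte and macrophage list 9 of 20 genes were higher and 1 was lower (median 0.65). The shares over all genes tested, for this and the next lists, were 12.7% higher and 19.1% lower. CLEC4D, a lectin that senses mycobacterial and fungal lipids, had the highest log2 fold change among called genes higher in all 12 animals with a mean of at least 1 CPM and a symbol that is no LOC identifier, 3.89 ± 0.62 (SE), adjusted p = 0.000204 (edgeR), although it was scarce. It ranged from 0 to 2.18 CPM (median 0.545) in controls and from 2.53 to 40.7 CPM (median 6.4) on Day 120, without overlap. CLEC4E, the related lectin Mincle, had 2.42 ± 0.67 (SE), adjusted p = 0.00791, and CLEC4A, an inhibitory lectin, 1.93 ± 0.33 (SE), adjusted p = 0.000304. CSF1R (-0.09), which defines monocytes, was not called, and CD14 was higher (0.75). In the complement list 9 of 18 genes were higher and 1 was lower. C3AR1, the receptor of the fragment C3a, ranged from 4.28 to 16.98 CPM (median 8.97) in controls and from 18.1 to 186 CPM (median 41.4) on Day 120, without overlap, at 2.51 ± 0.32 (SE), adjusted p = 4.24e-05. The receptors of C5a, C5AR1 and C5AR2, were higher in 12 of 12 animals at 1.69 and 1.69, while the C1q chains were not called. Of 17 Toll-like receptor genes 10 were higher and 2 were lower. TLR5, the sensor of flagellin, ranged from 7.06 to 34.2 CPM (median 12.4) and from 15.4 to 204.9 CPM (median 58.4), at 2.16 ± 0.27 (SE), adjusted p = 3.89e-05. TLR8 had 1.60 and the TLR4 partner LY96 1.61. The lower members were TLR7 (-1.38) and CD180 (-1.07), both of which B cells express.

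The 250 bases before the annotated start of CLEC4E, from the stretch on chromosome 11, are shown because they hold the C/EBP motif TTGCNNAA, read by factors of the myeloid lineage, and ACANNNTGT, the core of a glucocorticoid receptor element. Capitals mark both motifs, in either orientation. The window in Mmul_10 (RefSeq annotation) is chr11:11263690-11263939, plus strand.
CLEC4E: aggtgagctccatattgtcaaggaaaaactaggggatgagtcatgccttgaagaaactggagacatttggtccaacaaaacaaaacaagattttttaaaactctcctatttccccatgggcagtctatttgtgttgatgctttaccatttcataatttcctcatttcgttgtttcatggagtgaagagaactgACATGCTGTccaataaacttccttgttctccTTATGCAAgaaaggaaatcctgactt
The C/EBP motif begins 26 and the receptor element core 57 bases before the start. On both strands, the C/EBP motif was present in 7.36% of the 13741 windows of this length before tested genes and in 7.46% of windows of genes that were higher on Day 120. The receptor element core was present in 3.1% and 3.38%, and in 1 of 21 windows of the glucocorticoid list. Among the other named genes only CPA3, which was lower on Day 120, held both motifs. The windows of the neighbours CLEC4D and CLEC4A held neither.

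Over all genes, the highest and lowest changes that went the same way in 12 of 12 animals were partly outside these lists. SGMS2, a sphingomyelin synthase, ranged from 8.01 to 16.7 CPM (median 10.9) in controls and from 27.5 to 192 CPM (median 78.99) on Day 120. The groups lay far apart, and its log2 fold change of 2.78 ± 0.20 (SE), adjusted p = 1.14e-06 (edgeR), was the one of smallest adjusted p among the genes named here. CSTA, the protease inhibitor cystatin A of myeloid cells, ranged from 0.068 to 2.25 CPM (median 0.81) and from 2.44 to 43.1 CPM (median 6.07), again without overlap, at 3.19 ± 0.41 (SE), adjusted p = 4.59e-05. TMEM272, a membrane protein, had 2.68. Among the lowest, SOX4, a factor of lymphoid progenitors, ranged from 24.9 to 86.1 CPM (median 41.8) in controls and from 2.16 to 24.02 CPM (median 10.4) on Day 120, without overlap, at -2.11 ± 0.29 (SE), adjusted p = 8.61e-05. AEBP1 ranged from 6.65 to 97.3 CPM (median 41.7) and from 3.32 to 21.4 CPM (median 6.24), and ELFN2 from 5.1 to 56.7 CPM (median 30.2) and from 1.97 to 14.9 CPM (median 6.03). The Day 120 range of each overlapped that of its controls, at -2.21 ± 0.26 (SE), adjusted p = 2.52e-05, and -2.17 ± 0.20 (SE), adjusted p = 6.03e-06. SAG (-2.57), CCDC141 (-2.27), DENND2A (-2.14) and the junction protein JUP (-2.39) were the other named genes. In controls JUP was higher in series C than in series A by 2.02 on the log2 scale, the direction opposite to Day 120.

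**Figure D4:**
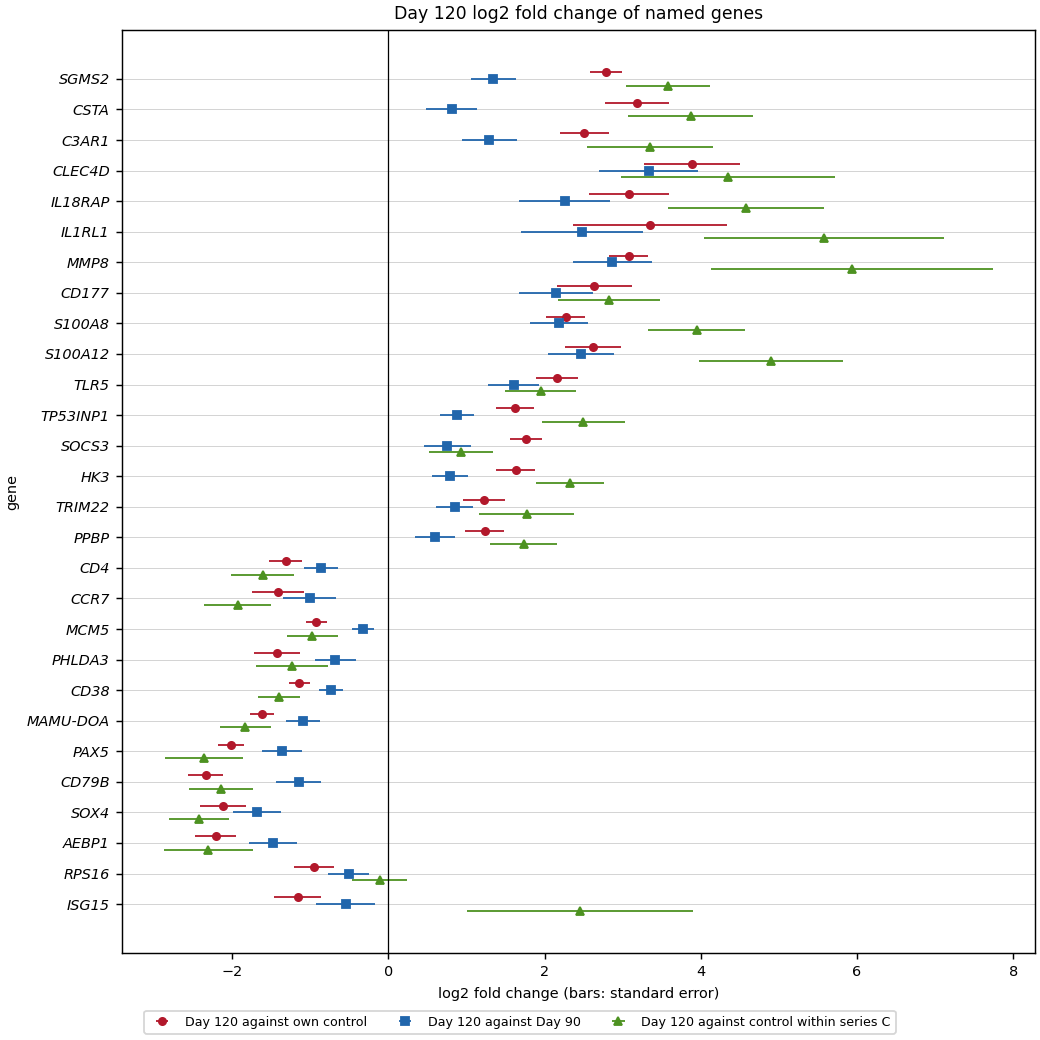
Log2 fold change of 28 named genes on Day 120 (points, with bars of 1 standard error) against the own control and against Day 90 in 12 animals, and against control within library series C. All comparisons give the same sign for 27 of the genes, while ISG15 is below 0 against the own control and above 0 within series C.

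Interferon response genes had no common direction. Of 34 genes 4 were higher and 8 were lower against the own control, beside 12.7% higher and 19.1% lower among all genes tested. The median was -0.02, and under TMM scaling and DESeq2 7 were higher and 7 lower. SAMD9L and TRIM22, antiviral factors, were higher in 11 and 12 animals, at 1.36 ± 0.25 (SE), adjusted p = 0.000528, and 1.23 ± 0.27 (SE), adjusted p = 0.00167 (edgeR). ISG15, a ubiquitin-like protein, was scarce, ranging from 0.951 to 8.81 CPM (median 2.62) in controls and from 0.438 to 4.09 CPM (median 1.14) on Day 120, with overlap, at -1.16 ± 0.30 (SE), adjusted p = 0.0057. In controls its log2 difference of series C minus series A was -0.94 (adjusted p = 0.227), the direction of Day 120. The lower calls did not hold within series C, where 2 genes were higher and none was lower and the median was 1.42. There ISG15 had 2.46 (adjusted p = 0.218), and with series as a term in a fit to all samples it had 0.88, with 13 higher and 0 lower genes in the list. OAS1 (-1.14), USP18 (-1.12) and MX1 (-0.79) were other lower members against the own control. In the list of cytokine feedback genes 5 of 21 were higher and 1 was lower. SOCS3, the inhibitor of IL-6 and G-CSF signalling, ranged from 9.36 to 39.6 CPM (median 18.196) and from 26.7 to 142 CPM (median 67.6), higher in 12 of 12 animals at 1.76 ± 0.21 (SE), adjusted p = 2.48e-05, with 0.93 (adjusted p = 0.109) within series C. BCL3 had 0.92 and STAT4, which signals for IL-12 in T cells, -0.90.

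Of 26 targets of p53, 5 were higher and 3 lower, with a median of -0.01, beside 12.7% higher and 19.1% lower among all genes tested. TP53INP1, a stress protein, ranged from 113.8 to 224.6 CPM (median 153) in controls and from 318 to 1226 CPM (median 411) on Day 120, without overlap, at 1.62 ± 0.24 (SE), adjusted p = 0.000138 (edgeR), and MDM2, the negative regulator of p53, had 1.15. PHLDA3 (-1.42) was lower in 12 of 12 animals. CDKN1A, the cell cycle inhibitor p21, was higher (0.68), while BAX (-0.45) and FDXR (-0.06) were not called. Cell division genes had 1 member higher and 3 lower out of 27. The lower ones were the replication helicase subunits MCM3, MCM5 and MCM7, each lower in 12 of 12 animals, at -0.97, -0.92 and -0.85, while MKI67 was not called (-0.42). Of 23 genes of hypoxia and glycolysis 10 were higher and 1 was lower, led by the hexokinase HK3, which ranged from 47.02 to 158 CPM (median 87.4) in controls and from 147 to 491 CPM (median 235.8) on Day 120, at 1.63 ± 0.25 (SE), adjusted p = 0.00014. The glycolytic regulators PFKFB4 and PFKFB3 had 1.53 and 1.40. In the TGF-beta and matrix list 10 of 28 genes were higher and 2 were lower. PLAUR, the urokinase receptor, had 1.98 ± 0.43 (SE), adjusted p = 0.00153, MMP9, the gelatinase of neutrophils, 1.86 ± 0.37 (SE), adjusted p = 0.000986, and LTBP3, which binds latent TGF-beta, -1.43 ± 0.31 (SE), adjusted p = 0.00165. TGFB1 itself was not called (0.19).

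Platelet genes were higher against the own control, in 10 of 20 members and lower in none (median 0.68), but none of them passed the threshold against Day 90. PPBP, the platelet basic protein, ranged from 505 to 2027 CPM (median 874) in controls and from 638 to 5709 CPM (median 2195) on Day 120, with overlap, at 1.23 ± 0.25 (SE), adjusted p = 0.00109 (edgeR). CLEC1B, a platelet receptor, and TREML1, an alpha granule protein, had 1.08 and 1.05. In controls the log2 difference of series C minus series A was -1.36 for CLEC1B and 0.72 for TREML1, neither past the threshold. Within series C, 2 of the 20 were higher. Erythroid genes had 3 of 28 members higher (the factor GATA1, the spectrin SPTB and the carbonic anhydrase CA1) and none lower. This share of higher genes was near the 12.7% of all genes tested, and within series C none of the 28 passed. The median of that list was 0.39, and its members lay between -1.29 for HBB, a globin, and 0.84 for SLC4A1, the anion exchanger of red cells. HBB had only 40 counts in its lowest library, while the red cell marker ALAS2 had at least 8231 in every library. Basophil genes differed in direction. Of 7 genes 4 were lower and 1 was higher, beside 19.1% lower and 12.7% higher among all genes tested. The median was -1.53, and the members lay between -2.301 and 2.01. Summed over the list, levels were 48.2 to 148.9 CPM in controls and 61.6 to 316.2 CPM on Day 120. The mast cell protease gene CPA3 and the IgE receptor chains MS4A2 and FCER1A were scarce, with medians of 4.1, 2.54 and 6.14 CPM in controls and of 0.406, 0.468 and 0.789 CPM on Day 120. They had -2.301 ± 0.57 (SE), adjusted p = 0.00393, -2.16 ± 0.55 (SE), adjusted p = 0.00476, and -2.15 ± 0.62 (SE), adjusted p = 0.0102. In controls their log2 differences of series C minus series A were -1.02, -0.71 and -0.96, the direction of Day 120, and none passed the threshold. Within series C, MS4A2 and FCER1A did not pass, at -1.42 (adjusted p = 0.121) and -0.71 (adjusted p = 0.548), nor did they from Day 90, at -1.30 (adjusted p = 0.0946) and -1.55 (adjusted p = 0.0792). In the eosinophil list the 2 higher of 7 genes were CEBPE (2.17), a factor that neutrophil precursors share, and ADGRE1 (1.30), while the defining gene EPX was not called (0.60).

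Cytosolic ribosomal protein genes were lower in part. Of 45 genes 14 were lower on Day 120 and none was higher (median -0.46), beside 19.1% lower among all genes tested. The controls of series C lay below those of series A by a median of 0.49, with 7 genes past the threshold. Within series C and against Day 90 none of the 45 passed. Over single animals the median ran from -2.22 to 0.92, with both ends in animals whose Day 120 libraries were of series C, and was -2.13 in B1506, of series B. The part of the series in these values was not tested. RPS16 had -0.95 ± 0.25 (SE), adjusted p = 0.00609 (edgeR), against its own control, and -0.11 (adjusted p = 0.838) within series C. In controls its log2 difference of series C minus series A was -0.91 (adjusted p = 0.0125), the direction of Day 120. RPL8, also of the cytosolic ribosome, had -0.93. Of the genes of lung and other tissues outside blood, 5 were expressed enough to be tested and none was called.

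**Figure D5:**
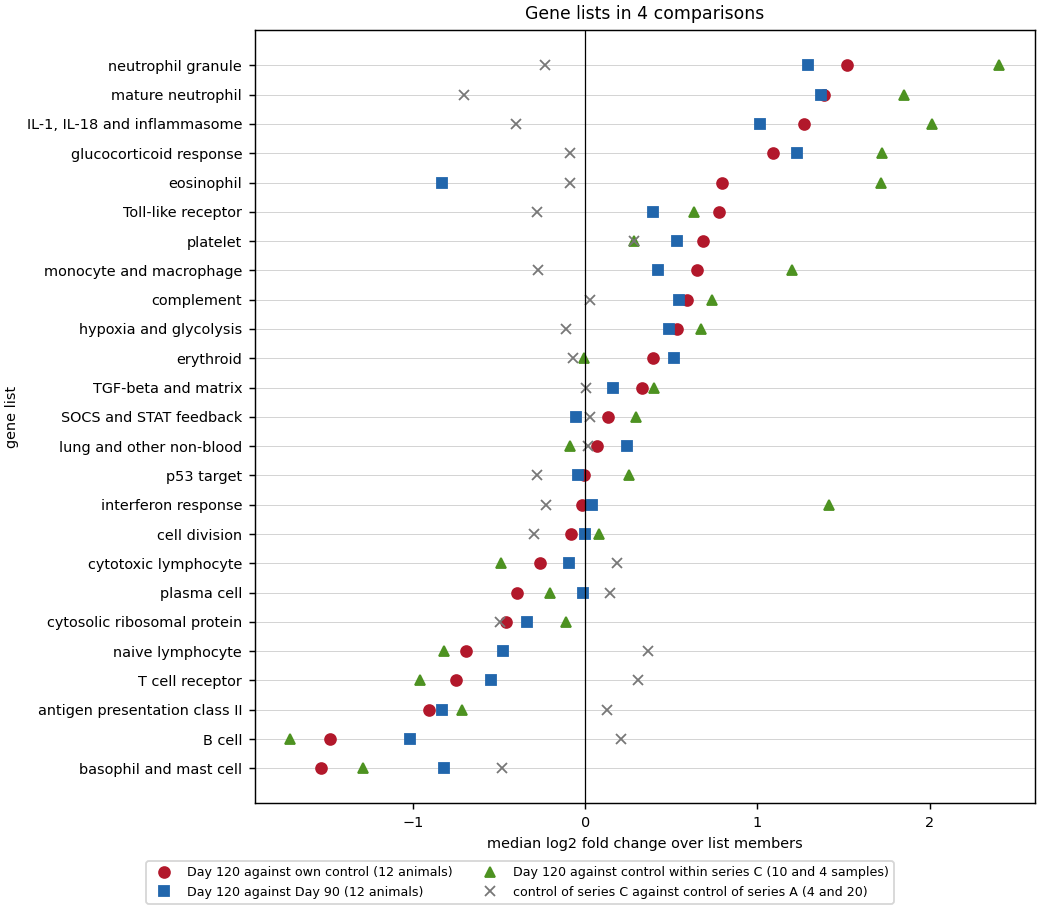
Median log2 fold change over the members of each gene list for Day 120 against the own control, against Day 90 and against control within library series C, and for controls of series C against controls of series A. The B cell list lies at -1.49, -1.02 and -1.72 and the mature neutrophil list at 1.39, 1.37 and 1.85 in the first 3 comparisons, while interferon and eosinophil lists change side between comparisons.

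Between Day 90 and Day 120, within the same library series, 1777 genes differed, 1026 higher (7.46%) and 751 lower (5.46%). The split was 1243 and 403 under TMM scaling, 1529 and 574 under DESeq2, and 1302 and 416 with no filter on low counts. B cell genes fell, with 17 of 24 lower than on Day 90 and none higher. CD79B ranged from 32.5 to 239.7 CPM (median 80.4) on Day 90 and had a log2 fold change of -1.15 ± 0.28 (SE), adjusted p = 0.0148 (edgeR), from Day 90 to Day 120. Neutrophil genes rose in this interval, with 17 of 19 mature and 10 of 16 granule genes higher, and so did 13 of 19 IL-1 and IL-18 genes and 11 of 21 glucocorticoid genes. MMP8 ranged from 0.376 to 3.98 CPM (median 1.16) on Day 90, and its log2 fold change was 2.87 ± 0.51 (SE), adjusted p = 0.00808. CLEC4D, IL1R2 and CLEC4E had 3.33 ± 0.63 (SE), adjusted p = 0.00863, 3.02 ± 0.75 (SE), adjusted p = 0.0152, and 2.64 ± 0.50 (SE), adjusted p = 0.00824, each higher in 11 of 12 animals. UNC5D, a netrin receptor not otherwise named, ranged from 1.23 to 13.4 CPM (median 3.11) on Day 90 and from 4.63 to 286 CPM (median 13.9) on Day 120, at 2.68 ± 0.54 (SE), adjusted p = 0.00863. BAHCC1 and SLCO5A1, a putative organic anion transporter, were each lower in 12 of 12 animals at -2.20 ± 0.40 (SE), adjusted p = 0.00808, and -1.69 ± 0.31 (SE), adjusted p = 0.00808. CPA3 (-2.11), the receptor phosphatase gene PTPRG (-1.79) and JUP (-1.73) lay between them. CSTA, which stood far above control on Day 120, did not pass against Day 90, at 0.81 ± 0.32 (SE), adjusted p = 0.0751. The count depended on single animals and was 954 without B1005, 1073 without B1006, 928 without B1503 and 817 without B1506. It was 1206 without B1003 and from 1609 to 2296 without any 1 of the remaining animals. B1003, B1005, B1006, B1503 and B1506 were the animals with the highest IL1R2 levels on Day 120.

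Sex and length of follow-up were tested as interactions. For the interaction of the Day 120 change with sex, edgeR called 0 of 13751 genes (0%), with 71 at an unadjusted p under 0.05, and DESeq2 also called 0. For follow-up to Day 270 against an earlier last draw, 6 animals against 6, edgeR called 0 genes (0%), with 218 at an unadjusted p under 0.05, and DESeq2 called 0. Missing the threshold does not show that these animals changed alike.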

How the data were processed

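The authors sequenced 304 whole blood RNA samples of 28 rhesus macaques. Their processing notes name cutadapt 2.10 for trimming, STAR 2.7.6a with the Mmul_10 assembly and Subread 2.0.1 for counting on RefSeq genes, and whether strand was used is not stated in the sources used here, so antisense partners cannot be told apart. The deposited count table has 21070 genes and is not normalized. The authors' other table holds log2 values of 16730 genes, scaled by the upper quartile, and was used as an alternative only. The deposited counts of the 24 member samples held no identical libraries.

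The filter of the study's methods (3 or more counts in 80% or more of all samples) left 13751 genes. Day 120 and control counts of 12 animals entered edgeR 4.0.16 (quasi-likelihood test, upper quartile scaling) under R 4.3.3 with limma 3.58.1. Animals formed the blocks, and p-values were adjusted over all genes by Benjamini-Hochberg. The pairing comes from the animal id, and deviations from the group means correlated over 0.1 in 9 of 12 animals (-0.14 to 0.49). A gene was called where its adjusted p was 0.05 or less and its change 1.5-fold or more. Levels are CPM, log2 differences of single animals have 2 counts added as prior, and standard errors were derived from the F statistic. No depth interval was computed, since the tests model the counting error. Each animal gave 1 sample per day, so the spread is that between animals.

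The members and the 25 gene lists were chosen with earlier results of these data known. Named genes were, for each list, up to 3 called genes of largest change with 1 direction in 10 or more of the 12 animals. Added were the 8 highest and 8 lowest called genes that moved the same way in every animal, with a mean of at least 1 CPM and a symbol that is no LOC identifier, and the 5 highest and 5 lowest from Day 90 with at least 10 of 12 animals. Some of these items are not reported here. Other genes named were picked after their values had been seen. The calculation was tested on simulated data. Positions and promoter windows of 250 bases were read from the RefSeq annotation of Mmul_10, the build of the files, with pysam 0.24.0, and 13741 of the 13751 genes had a window. Tables and figures used pandas 2.3.3 and matplotlib 3.10.9. Alternatives were TMM scaling, DESeq2 1.42.0, other filters, no replicate block, 9.8 Gy animals only, single library series, series as a term, limma on the log2 values and leaving out each animal.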

Additional observations from a re-analysis of the deposited data

How the results depend on the processing

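The number of genes called against the own control was 4368 and stayed within 1.5 times of it under TMM scaling (4048), DESeq2 (4280), no filter (4239), the filterByExpr filter (4363), 9.8 Gy animals only (4270), Day 120 samples of series C (3814), series C with different animals (3114), series as a term (4962) and limma on the deposited log2 values (4811). Leaving out 1 animal gave 3745 to 4730. Without the replicate block, that is without pairing by animal, it was 4155, and from Day 90 it was 1530 in place of 1777, so the block moved neither count by over 1.5 times. From the 4 animals of series B alone edgeR called 0 genes (3163 at an unadjusted p under 0.05), and DESeq2, added after seeing the data, called 881. From Day 90, the 8 animals of series C alone gave 0 genes by edgeR (2802 unadjusted) and 918 by DESeq2, which was added likewise, and leaving out 1 animal gave 817 to 2296. These subsets hold fewer samples.

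All 77 genes named against the own control kept direction and threshold under TMM scaling, DESeq2, both filters, no replicate block, 9.8 Gy animals only and every animal left out. They had been chosen as called genes of large change in these same data, so this is no independent test. With Day 120 samples of series C only, 73 kept direction and threshold and 4 the direction only. With those of series B only, all 77 kept the direction, and 0 passed by edgeR and 51 by DESeq2. Within series C with different animals 63 did, 13 kept the direction only, and ISG15 reversed to 2.46. With series as a term ISG15 reversed to 0.88, and the cause was not tested. DESeq2 changed the number of called members to 6 for the erythroid, 4 for the eosinophil and 1 for the non-blood list. Depth was lower on Day 120 than in controls, which limits scarce genes most.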

Other observations

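Some cell lineages differed between animals in direction as well as size. Over 28 erythroid genes the median log2 difference from the own control was 2.41 in B1003, 2.24 in B1506 and 1.51 in B1503, against -1.30 in B1002 and -1.22 in B1502. Over 7 eosinophil genes it was 2.94 in B1506, 2.54 in B1501, 2.12 in B1001 and 1.89 in B1002, but -1.86 in B1003 and -1.58 in B1006. Over 20 platelet genes it ran from -1.18 in B1502 to 2.50 in B1506. Against Day 90, 4 of the 28 erythroid genes were higher, 1 of the 7 eosinophil genes was lower and 0 of the 20 platelet genes passed, beside 7.46% higher and 5.46% lower among all genes tested.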
